A study of Rattus norvegicus with 2 samples.

Results

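The enzymes and chaperones that fold, hydroxylate, trim and cross-link collagen were followed through cells of the rat optic nerve. They are 10 of the 25399 genes counted, taken by symbol from the deposited gene list: Serpinh1 (ENSRNOG00000016831), P4hb (ENSRNOG00000036689), P4ha1 (ENSRNOG00000050655), P4ha2 (ENSRNOG00000033663), Plod1 (ENSRNOG00000007763), Plod2 (ENSRNOG00000030183), Lox (ENSRNOG00000014426), Loxl1 (ENSRNOG00000008680), Loxl2 (ENSRNOG00000016758) and Pcolce (ENSRNOG00000025001). They were listed by name and not by a rule on their values, though earlier results of these data were known when they were listed. The data are 1 single-cell library from WT Sprague Dawley rats and 1 from Nuc1 rats, which carry a spontaneous insertion in Cryba1. Both libraries are labelled optic nerve at postnatal day 7, while the study speaks of cultured mixed cells and used pups of 2 days for its astrocyte cultures, so dissociated tissue and culture cannot be told apart here. Libraries were made with a droplet kit that tags transcript ends, aiming at 3000 cells from 5092 WT and 5125 Nuc1 cells at 90% and 95% viability. With a single library per genotype, differences between WT and Nuc1 are given as sizes with counting intervals and carry no p-value. Every interval below is an exact 95% interval and covers counting error only.

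Fibrillar collagens are made as long precursor chains in the endoplasmic reticulum. There prolyl 4-hydroxylase, built from catalytic subunits (P4ha1, P4ha2) and protein disulfide isomerase (P4hb), hydroxylates prolines so that the triple helix is stable, lysyl hydroxylases (Plod1, Plod2) prepare lysines for glycosylation and cross-links, and the chaperone HSP47 (Serpinh1) holds the folded helix until export. Outside the cell the ends of the precursor are cut off, a step that Pcolce enhances, and lysyl oxidases (Lox, Loxl1, Loxl2) oxidize lysines so that fibrils of collagen, and for some family members elastin, are cross-linked. In the optic nerve, fibroblasts of the sheath are the main makers of fibrillar collagen, and their matrix surrounds the glia and axons.

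Promoters of P4hb, Plod1, Loxl1 and Pcolce held neither motif marked below and are not shown. Serpinh1 is a heat shock chaperone gene, and P4ha1, P4ha2 and Plod2 are hydroxylase genes known as targets of low oxygen. Their promoters held a marked motif and are shown. Each runs from 250 bases before the start of the gene to 50 after it, 5′ to 3′ along the gene. Sequences are from RefSeq on the build GRCr8, which held 8 of the 10 genes; Lox and Loxl2 had no entry. The spans are chr1:163062927-163063226 on the minus strand for Serpinh1, chr20:27844796-27845095 on the plus strand for P4ha1, chr10:38743644-38743943 on the plus strand for P4ha2 and chr8:101964068-101964367 on the plus strand for Plod2. Capitals mark the letters of a heat shock element (3 units, GAA and TTC by turns, with 2 bases of any kind between them) or of the core to which hypoxia-inducible factors bind (ACGTG, or CACGT on the other strand).
Serpinh1: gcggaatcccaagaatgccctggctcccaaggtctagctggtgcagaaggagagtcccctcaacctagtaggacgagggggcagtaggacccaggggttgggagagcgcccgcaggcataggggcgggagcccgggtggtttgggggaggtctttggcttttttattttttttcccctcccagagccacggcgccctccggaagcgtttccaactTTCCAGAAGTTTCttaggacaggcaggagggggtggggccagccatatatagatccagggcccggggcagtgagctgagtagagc
P4ha1: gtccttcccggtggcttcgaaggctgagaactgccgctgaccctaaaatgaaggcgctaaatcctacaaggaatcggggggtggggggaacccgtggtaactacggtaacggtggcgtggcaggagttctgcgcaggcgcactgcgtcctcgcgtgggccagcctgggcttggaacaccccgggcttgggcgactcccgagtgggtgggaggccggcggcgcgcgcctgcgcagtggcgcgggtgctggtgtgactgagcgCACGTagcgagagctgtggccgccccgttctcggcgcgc
P4ha2: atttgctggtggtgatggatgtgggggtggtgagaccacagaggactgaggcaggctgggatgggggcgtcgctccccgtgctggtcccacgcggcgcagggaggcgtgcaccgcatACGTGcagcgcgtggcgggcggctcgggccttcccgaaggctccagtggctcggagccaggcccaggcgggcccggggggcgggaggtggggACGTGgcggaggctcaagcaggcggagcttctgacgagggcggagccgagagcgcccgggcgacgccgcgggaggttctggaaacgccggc
Plod2: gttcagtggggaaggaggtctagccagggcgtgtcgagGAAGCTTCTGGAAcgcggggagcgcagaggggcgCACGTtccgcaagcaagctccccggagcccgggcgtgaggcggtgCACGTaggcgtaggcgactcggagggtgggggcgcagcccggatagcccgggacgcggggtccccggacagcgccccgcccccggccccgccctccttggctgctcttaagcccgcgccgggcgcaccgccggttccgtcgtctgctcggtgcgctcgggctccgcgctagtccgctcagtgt
The heat shock element stood in the Serpinh1 promoter 35 bases before the start, and in the Plod2 promoter 212 bases before it, while 0.798% of the 33469 rat promoters of the same length held it. The hypoxia core stood 133 and 41 bases before the start in P4ha2, 178 and 133 bases before it in Plod2, and at base 12 in P4ha1. It is a common word, held by 19.3% of all promoters, and 3 of the 8 promoters of these genes had it. The CCAAT box (CCAAT, or ATTGG on the other strand) was held by 37.5% of all promoters and, of the 8, by that of P4hb. A match is a description of the letters and not a binding site.

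After filters the WT library held 1961 cells (median 14050 UMIs) and the Nuc1 library 1780 (median 16567.5). A UMI is a molecular tag that counts 1 captured transcript. Levels are given as counts per 1000000 UMIs (CPM), summing all cells that a library had in a cluster. Only 2 cell barcodes occurred in both libraries, and 7 WT and 13 Nuc1 cells called doublets were left out. Cryba1 had 0 UMIs in both libraries, so the genotype labels could not be checked from it. Since only transcript ends are counted, and Col1a2, the partner chain of Col1a1, had just 0.434% of the UMIs of Col1a1 in WT fibroblast-like cells and 0.378% in Nuc1, levels are compared between cells and not between genes.

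Of 10 clusters, found without the 10 genes, Col1a1 and Col3a1 among the genes used, 4 were fibroblast-like by their markers. At least 6 of 9 fibroblast markers (such as Dcn, Lum and Pdgfra) reached 50 CPM in each. Cluster 0 (573 WT and 342 Nuc1 cells) was led by Igfbp5, Shisa3 and Cpxm2, cluster 1 (485 and 304) by Postn, Thbd and Shisa3, cluster 2 (483 and 177) by Actg2, Penk and Mfap5, and cluster 4 (53 and 363) by Inmt, Cyp26b1 and Gjb2. Cluster 5 (147 and 77) had fibroblast markers but was led by genes of division such as Ube2c and Top2a and was kept apart. Glial cells were the astrocyte-like cluster 3 (106 and 349, led by Gfap) and the oligodendrocyte-lineage cluster 7 (51 and 10, led by Bcas1). Cluster 9 (24 and 22, led by Pf4 and Tyrobp) held macrophages or microglia, which its markers did not tell apart. The marker Cx3cr1 was at 0 there in both libraries. Cluster 6 (15 and 105) was led by genes of motile cilia. Cluster 8 (24 and 31) stayed unnamed. Markers of the choroid plexus, Ttr above all, summed to 57759 CPM in Nuc1 but to only 12.4 in WT. The astrocyte markers summed to 7788 in WT and 7193 in Nuc1 there. Whether the libraries hold different kinds of cells in this cluster was not tested.

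**Figure D1:**
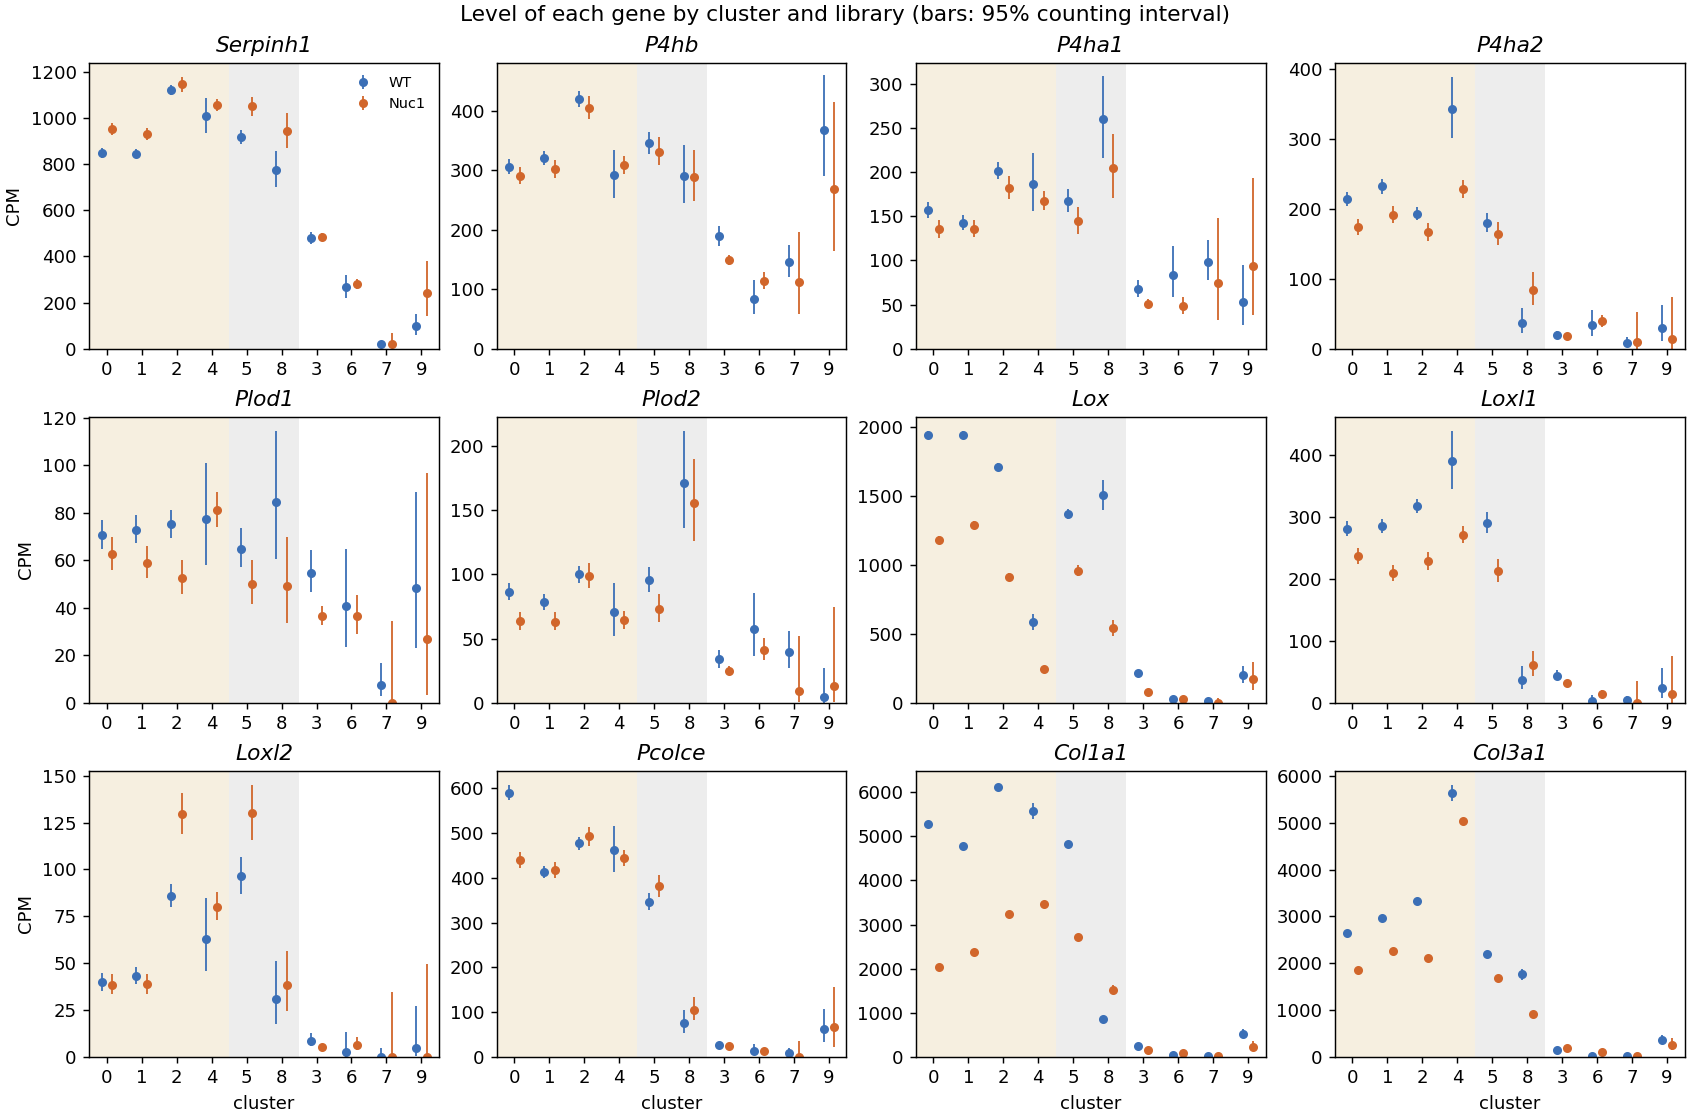
CPM of the 10 genes, Col1a1 and Col3a1 (linear axes from 0, 1 panel per gene) in each cluster of the WT (blue) and Nuc1 (orange) library, with 95% counting intervals as bars. Cluster order is the same in every panel, with the 4 fibroblast-like clusters on a tan ground, clusters 5 and 8 on grey, and clusters 3, 6, 7 and 9 on white. Lox stands between 917 and 1946 in clusters 0, 1 and 2 of both libraries, and at 585 and 247 in cluster 4.

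Serpinh1, the chaperone, was high in every fibroblast-like cluster of both libraries. In the WT library it had 847 CPM in cluster 0, 844 in cluster 1, 1121 in cluster 2 and 1009 in cluster 4, and in the Nuc1 library 952, 928, 1145 and 1056. Cluster 2 was highest and clusters 0 and 1, which did not differ beyond counting error, were the lowest of the fibroblast-like clusters in both libraries. Over the 4 clusters together the level was 947 (935 to 959) in WT and 1014 (1000 to 1028) in Nuc1, a log2 ratio of 0.10 (0.07 to 0.13). Outside the fibroblasts, astrocyte-like cells had 478 and 485, and cells with motile cilia 267 and 280. In the oligodendrocyte-lineage cluster it was 19.1 (10.7 to 31.5) and 18.7 (2.27 to 67.7), and 73.3% of the 15 WT UMIs came from 1 cell.

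The subunits of prolyl 4-hydroxylase were spread in different ways. P4hb, which also serves protein folding in general, had 306, 320, 419 and 291 CPM in clusters 0, 1, 2 and 4 of the WT library and 290, 301, 405 and 308 in Nuc1. It stood highest in cluster 2 of both libraries. Macrophages or microglia came close, at 367 (289 to 460) in WT and 268 (164 to 414) in Nuc1, with Serpinh1 at 96.6 and 241 in the same cells; these cells were shallow, with a median of 7827.5 UMIs in WT and 1807.5 in Nuc1. P4ha1 had 157, 143, 201 and 187 in the 4 WT clusters and 135, 136, 182 and 168 in the Nuc1 clusters, so clusters 2 and 4 stood above clusters 0 and 1, although in WT no neighbours in the order from cluster 2 down to cluster 0 differed beyond counting error. In the oligodendrocyte lineage P4ha1 had 98.2 (77.5 to 123) in WT and 74.9 (32.3 to 148) in Nuc1. P4ha2 was highest in cluster 4, at 343 in WT and 228 in Nuc1, against 193 to 232 and 167 to 192 in the other fibroblast-like clusters.

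The lysyl hydroxylases followed different clusters. Plod1 ran from 70.7 to 77.5 CPM across the WT fibroblast-like clusters, with no neighbours in that order beyond counting error, and from 52.7 in cluster 2 to 81.1 in cluster 4 of the Nuc1 library. Plod2, which hydroxylates lysines of the collagen ends, was highest in cluster 2 in both libraries, at 100 (93.5 to 107) and 99.0 (89.7 to 109). In clusters 0, 1 and 4 it had 70.3 to 86.2 in WT and 63.2 to 64.2 in Nuc1. The unnamed cluster 8 had the highest P4ha1 (260 and 205, in Nuc1 not beyond counting error from cluster 2) and Plod2 (171 and 156) of all clusters, while P4ha2 (37.1 and 84.2), Loxl1 (37.1 and 60.3) and Pcolce (76.2 and 105) were below every fibroblast-like cluster.

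Between fibroblast-like clusters, only the lysyl oxidases Lox and Loxl2 differed by 1.5-fold or more in both libraries. In the directions without a call among the 10, of all genes 0.985% were higher and 1.42% lower in cluster 0 than 1, 5.76% higher in 0 than 2, 5.14% higher in 1 than 2, 6.01% lower in 1 than 4 and 9.31% lower in 2 than 4. Lox had 1945, 1946 and 1712 CPM in clusters 0, 1 and 2 of the WT library and 585 (530 to 645) in cluster 4, and in the Nuc1 library 1181, 1290 and 917 against 247 (234 to 260). Cluster 4 was thus the lowest in each library, although its Col3a1 level was the highest of all (5640 and 5042, against 2651 to 3328 and 1864 to 2261 in the other 3). Lox was the only one of the 10 genes at least 1.5-fold lower in cluster 4 than in cluster 0 in both libraries (6.02% of 6732 genes), than in cluster 1 (5.7% of 6977) and than in cluster 2 (5.82% of 6854). Loxl1 was highest in cluster 4, at 390 (345 to 439) in WT and 271 (258 to 285) in Nuc1, against 281 to 317 and 209 to 237.

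Loxl2 took yet another course. It had 39.8, 43.2, 86.1 and 63.1 CPM in clusters 0, 1, 2 and 4 of the WT library, and 38.4, 38.6, 130 and 80.2 in the Nuc1 library. Cluster 2 was the highest of the 4 in both, and the dividing cluster 5 did not differ from it beyond counting error, at 96.5 (87.0 to 107) and 130 (116 to 145). It was the only one of the 10 genes at least 1.5-fold lower in cluster 0 than in cluster 2 in both libraries (5.49% of 7071 genes), and likewise in cluster 1 than in cluster 2 (3.38% of 7192) and in cluster 0 than in cluster 4 (7.37% of 6732). Markers of division ran with it only in part. Over both libraries the 7 of them, none at 0, summed to 220 CPM in cluster 2 and 2833 in cluster 5. They summed to 14.3, 24.3 and 19.2 in clusters 0, 1 and 4, although Loxl2 was higher in cluster 4 than in clusters 0 and 1. In the oligodendrocyte-lineage cluster they summed to 1619, with 0 Loxl2 UMIs in either library. The part of division markers in the Loxl2 level was not tested.

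Pcolce, the enhancer of propeptide removal, had 590, 412, 477 and 462 CPM in clusters 0, 1, 2 and 4 of the WT library and 439, 417, 492 and 444 in the Nuc1 library. Cluster 0 led in WT and cluster 2 in Nuc1, so the order was not the same in both libraries. In the dividing cluster it was lower, at 346 and 381, than in any of the 4 fibroblast-like clusters of the same library.

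Fibroblast-like cells were then set against astrocyte-like cells. Of the 10 genes, 7 were at least 2-fold higher in fibroblast-like cells in both libraries (P4ha1, P4ha2, Plod2, Lox, Loxl1, Loxl2 and Pcolce), beside 14.0% of the 9181 genes with enough UMIs, and none was 2-fold lower (9.12%). The median log2 ratio of the 10 genes was 2.07 in WT and 2.26 in Nuc1, against 0.16 and 0.33 over all genes. With cells limited to 10% mitochondrial UMIs in place of 20%, 4 of the 10 passed 2-fold (P4ha2, Loxl1, Loxl2 and Pcolce), in an astrocyte-like cluster with 28 WT and 183 Nuc1 cells, of which 12 and 15 belonged to cluster 8 before. The share of the fibroblast-like level that astrocyte-like cells held ranged widely. Serpinh1 reached 50.5% of the fibroblast-like level in WT (47.7 to 53.3) and 47.8% in Nuc1 (46.3 to 49.4), P4hb 53.9% and 46.4%, Plod1 74.9% and 56.7%, P4ha1 40.1% and 33.2%, and Plod2 38.4% and 35.1%. P4ha2 stood at 8.89% and 9.14%, Lox at 11.8% and 8.89%, Loxl1 at 14.7% and 13.2%, Loxl2 at 14.8% and 7.48%, and Pcolce at 5.53% and 5.47%, beside Col1a1 (4.58% and 5.65%) and Col3a1 (4.65% and 6.33%).

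RNA of fibroblasts can enter other droplets, so the collagen in astrocyte-like cells was used as a yardstick. The Col1a1 and Col3a1 UMIs there were 4.61% of the fibroblast-like level in WT and 6.0% in Nuc1. The same share of the fibroblast-like Serpinh1 level is 43.6 CPM in WT and 60.9 in Nuc1. In astrocyte-like cells 478 and 485 were counted, 11 and 7.97 times as many. For Pcolce the share is 22.5 and 26.7, and 27.1 and 24.4 were counted, 1.2 and 0.91 times as many. P4ha2 had 1.93 and 1.52 times the share, Lox 2.57 and 1.48, Loxl1 3.19 and 2.20, and Loxl2 3.21 and 1.25. P4hb, P4ha1, Plod1 and Plod2 had 5.53 to 16.3 times the share. Whether all of that collagen was carried over, and whether every gene is carried at the same share, was not tested. Leaving out the 17 WT and 62 Nuc1 cells with over 300 CPM of Col1a1, Col3a1, Dcn and Lum brought Col1a1 to 0.55% and 0.244% of the fibroblast-like level. That fall was set in advance, because the rule selects on Col1a1. Serpinh1 stayed at 48.1% and 44.0%, P4hb at 51.1% and 44.1%, P4ha1 at 39.2% and 33.3%, Plod1 at 69.5% and 53.9% and Plod2 at 35.4% and 31.3%. Other genes fell. In WT P4ha2 went from 19.2 to 15.3 CPM, Lox from 216 to 158 and Loxl1 from 43.8 to 33.3. Loxl2 went from 8.54 to 7.89 and Pcolce from 27.1 to 17.1. In Nuc1 the log2 ratio of fibroblast-like over astrocyte-like cells rose from 3.45 to 4.20 for P4ha2 and 3.49 to 6.88 for Lox. It rose from 3.74 to 4.32 for Loxl2 and 4.19 to 6.43 for Pcolce. Against the cells left, 8 of the 10 genes were at least 2-fold higher in fibroblast-like cells, Serpinh1 being added (15.2% of 9088 genes), and none lower (8.99%).

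**Figure D2:**
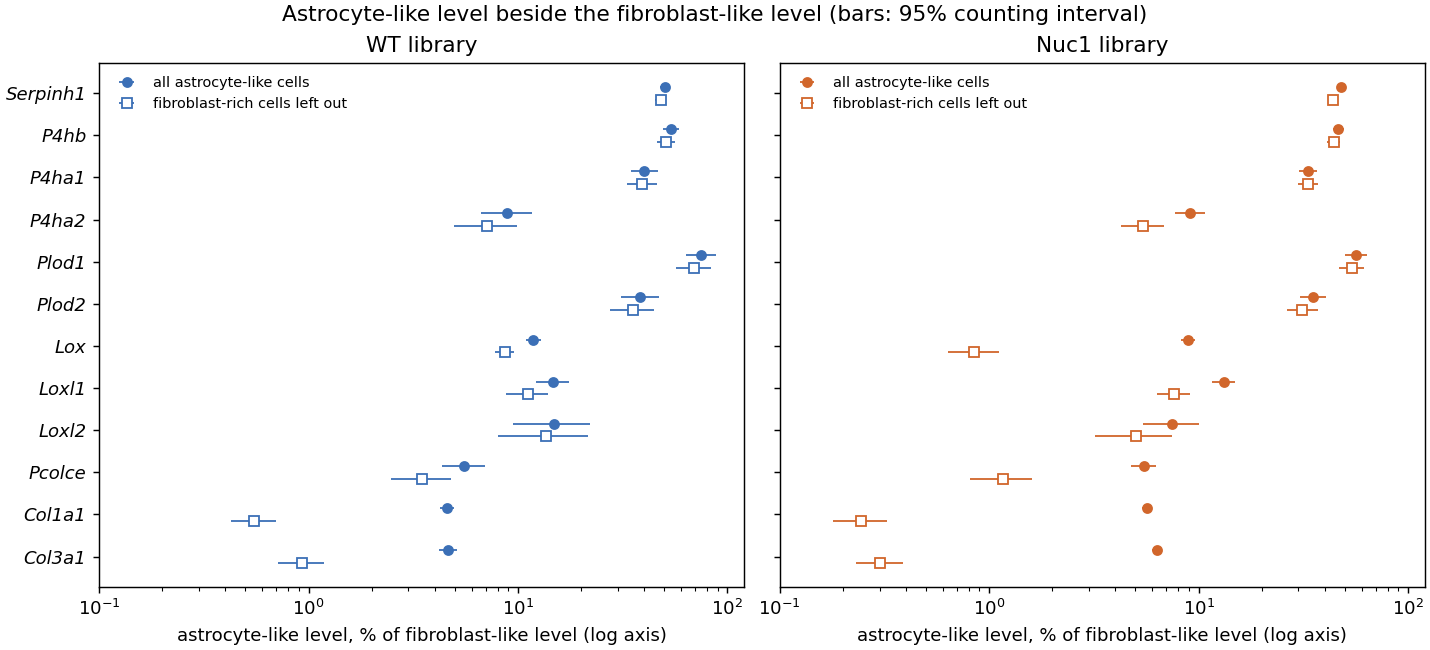
Level of each gene in astrocyte-like cells as a percentage of its level in fibroblast-like cells of the same library (log axis), for all astrocyte-like cells (filled circles) and without the fibroblast-rich ones (open squares), with 95% counting intervals. Serpinh1, P4hb, P4ha1, Plod1 and Plod2 sit between 31.3% and 74.9% in both libraries and hardly move, and the open square of Lox lies at 8.66% in WT and 0.848% in Nuc1.

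The other cell types repeated parts of this picture. Against cells with motile cilia 8 of the 10 genes were at least 2-fold higher in fibroblast-like cells in both libraries (16.1% of genes), the exceptions being Plod1 (40.5 and 36.4 CPM in cells with motile cilia) and Plod2 (57.2 and 40.9), and none was lower (11.6%). Against the oligodendrocyte lineage 9 were higher (14.9%) and none lower (9.91%), with P4ha1 the exception. The 10 Nuc1 cells of that lineage held 0 UMIs of Plod1, Lox, Loxl1, Loxl2 and Pcolce, 1 each of P4ha2 and Plod2, and 2 of Serpinh1. Against macrophages or microglia 7 were higher (16.1%) and none lower (2.03%), and P4hb, P4ha1 (53.1 and 93.9) and Plod1 (48.3 and 26.8) were the exceptions. Dividing cells with fibroblast markers differed from the fibroblast-like cells by 2-fold in both libraries for none of the 10 genes (1.54% of genes higher, 4.67% lower).

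Lox in astrocyte-like cells differed by library. Over all of them it had 216 CPM (607 UMIs) in WT and 79.7 (713 UMIs) in Nuc1. With the fibroblast-rich cells left out, 89 WT astrocyte-like cells had 361 Lox UMIs, or 158 CPM (142 to 175), and 287 Nuc1 cells had 53, or 7.61 (5.70 to 9.95). That is a log2 difference of −4.38 (−4.82 to −3.96). The rule leaves out cells by their fibroblast RNA, and Lox is itself high in fibroblast-like cells. The size of this difference therefore depends on the rule. A Lox UMI was present in 57.3% of the WT cells (46.4 to 67.7) and in 11.8% of the Nuc1 cells (8.35 to 16.2), and after thinning to 10000 UMIs per cell in 47.7% of 88 and 5.99% of 267. The cell with most held 9.70% of the WT UMIs. Among the cells with no UMI of Col1a1 or Col3a1 the 24 of the WT library had 113 CPM (87.0 to 144) and the 203 of the Nuc1 library 4.68 (2.93 to 7.08), but there 1 cell held 32.3% of the WT UMIs. In the oligodendrocyte lineage, taken as cells that should lack the gene, 15.7% of 51 WT cells had a Lox UMI at a median of 12298 UMIs per cell, against medians of 25691 in the 89 WT and 22941 in the 287 Nuc1 astrocyte-like cells. Of the 10 Nuc1 cells of that lineage 0 had one, which allows a share of up to 30.8%, so the Nuc1 share of 11.8% cannot be told apart from the background of its own library.

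Along with Lox, 3 more of the 10 genes were at least 1.5-fold lower in the Nuc1 cells of this set: Loxl1 (33.3 and 18.1 CPM), Loxl2 (7.89 and 3.44) and Pcolce (17.1 and 5.17), beside 12.0% of 6891 genes with at least 100 UMIs. Of the 10 genes 8 had that many, and Loxl2 (18 and 24 UMIs) and Pcolce (39 and 36) did not. None was 1.5-fold higher (6.18%). Other markers moved with them. Over the same cells the 9 fibroblast markers summed to 323 CPM in WT and 124 in Nuc1 (Fap at 0 in both), the 7 dividing markers to 287 and 51.5 (none at 0), and the 12 macrophage or microglia markers to 149 and 3.73 (Cx3cr1 at 0 in both, and Csf1r, Tyrobp and Ptprc at 0 in Nuc1). Their part in the Lox difference was not tested. The 9 astrocyte markers summed to 42572 and 55165. Before the fibroblast-rich cells were left out, Loxl1 had 43.8 and 31.3 CPM, Loxl2 8.54 and 5.14 and Pcolce 27.1 and 24.4. The sizes of these differences thus depend on that rule too.

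In fibroblast-like cells most of the 10 genes differed little between the libraries. The Lox level was 1826 CPM (1809 to 1842) in WT and 897 (884 to 910) in Nuc1, a log2 ratio of −1.03 (−1.05 to −1.0), and Lox was the only one of the 10 genes at least 1.5-fold lower, beside 8.75% of 10094 genes, so the count of 1 in 10 is near the background. None was at least 1.5-fold higher, against 9.59%. The median log2 ratio of the 10 genes was −0.15 and that of all genes 0.03. After Lox came Loxl1 at −0.33 (298 and 238), Plod2 at −0.31 (88.0 and 71.0) and Loxl2 at 0.25 (57.8 and 68.8). P4hb (350 and 322), P4ha1 (169 and 154), P4ha2 (216 and 192), Plod1 (73.2 and 64.7) and Pcolce (489 and 446) had log2 ratios from −0.18 to −0.12.

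Cluster 4, low in Lox, held 363 of the 1186 Nuc1 and 53 of the 1594 WT fibroblast-like cells, so the Lox difference was also read within clusters. On the log2 scale Nuc1 differed from WT by −0.72 (−0.76 to −0.68) in cluster 0, −0.59 (−0.63 to −0.55) in cluster 1, −0.90 (−0.95 to −0.85) in cluster 2, −1.25 (−1.41 to −1.08) in cluster 4 and −0.52 (−0.59 to −0.45) in the dividing cluster. The Nuc1 level was the lower one in each. With cluster 4 left out the ratio of the class was −0.70. Of the genes tested, 10.5% were at least 1.5-fold lower in cluster 0, 8.98% in cluster 1, 10.5% in cluster 2 and 6.98% in cluster 4, and Lox was among them each time; in the dividing cluster none of the 10 genes was past 1.5-fold (7.27% lower and 4.32% higher). The clusters come from the same 2 libraries and are not replicates.

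Among the fibroblast-like clusters, Loxl2 passed 1.5-fold in cluster 2 and P4ha2 in cluster 4. Loxl2 was higher in the Nuc1 cells of cluster 2, at 86.1 against 130 CPM, a log2 ratio of 0.59 (0.43 to 0.75; 5.21% of 7809 genes were at least 1.5-fold higher there), while at least 1.5-fold higher levels were found for none of the 10 genes in clusters 0 (5.67%), 1 (6.0%) and 4 (12.0%). The Loxl2 ratio was −0.05 (−0.32 to 0.21) in cluster 0 and −0.16 (−0.42 to 0.09) in cluster 1. P4ha2 was lower in cluster 4, at −0.59 (−0.79 to −0.38), and had −0.30, −0.28 and −0.21 in clusters 0, 1 and 2. Pcolce was lower in cluster 0 at −0.43 (−0.50 to −0.36) and stood at 0.01, 0.05 and −0.06 in clusters 1, 2 and 4. These differences among clusters were not tested.

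**Figure D3:**
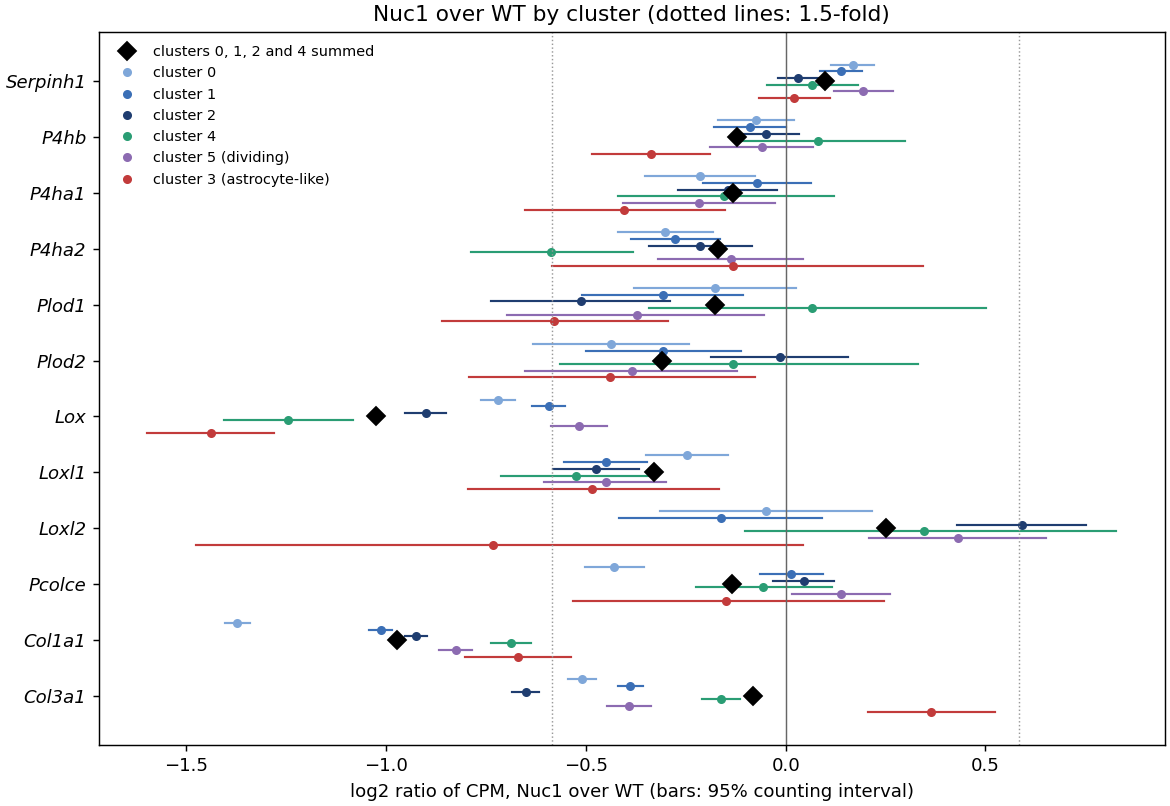
Log2 ratio of CPM, Nuc1 over WT, for each gene in clusters 0, 1, 2, 4, 5 and 3 (coloured points with 95% counting intervals) and in the 4 fibroblast-like clusters summed (black diamonds); dotted lines mark 1.5-fold. All Lox points lie left of 0, from −0.52 in cluster 5 to −1.44 in cluster 3, and the diamonds of the other 9 genes lie between −0.33 and 0.25.

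The collagen chains themselves differed unequally. Col1a1 had 5422 CPM in WT fibroblast-like cells and 2764 in Nuc1, a log2 ratio of −0.97 (−0.99 to −0.96), and Col3a1 3071 and 2900, a ratio of −0.08 (−0.10 to −0.07). Within clusters 0, 1, 2 and 4 the ratio of Col1a1 was −1.37, −1.01, −0.92 and −0.69, and that of Col3a1 −0.51, −0.39, −0.65 and −0.16. Serpinh1 in the same clusters had log2 ratios of 0.03 to 0.17, with intervals that held 0 in clusters 2 and 4.

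Counted per 1000 UMIs of Col1a1 and Col3a1 together, the 10 genes summed to 531 in WT and 612 in Nuc1 fibroblast-like cells. In cluster 0 the sums were 572 and 915, in cluster 1 565 and 785, in cluster 2 498 and 714, and in cluster 4 310 and 347. Serpinh1 per 1000 collagen UMIs was 107 and 244 in cluster 0, 2.28 times as many in Nuc1 (2.20 to 2.37), and 90.0 and 124 in cluster 4. In cluster 0 the ratio of Nuc1 to WT ran from 1.23-fold for Lox to 2.28-fold for Serpinh1. In cluster 4 Lox (52.2 and 29.0), P4ha2 (30.6 and 26.9) and Loxl1 (34.8 and 31.9) had fewer, of which Lox alone differed beyond counting error, and the other 7 had more, with intervals that held no difference for P4ha1 and Plod2. The collagen UMIs are the divisor here, so these ratios carry the Col1a1 and Col3a1 differences in them. Collagen stood at 7930 CPM in WT and 3904 in Nuc1 in cluster 0, and at 11211 and 8501 in cluster 4. A gene with the same CPM in both libraries would thus have more UMIs per collagen UMI in Nuc1. The share of all genes that did so was not counted.

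**Figure D4:**
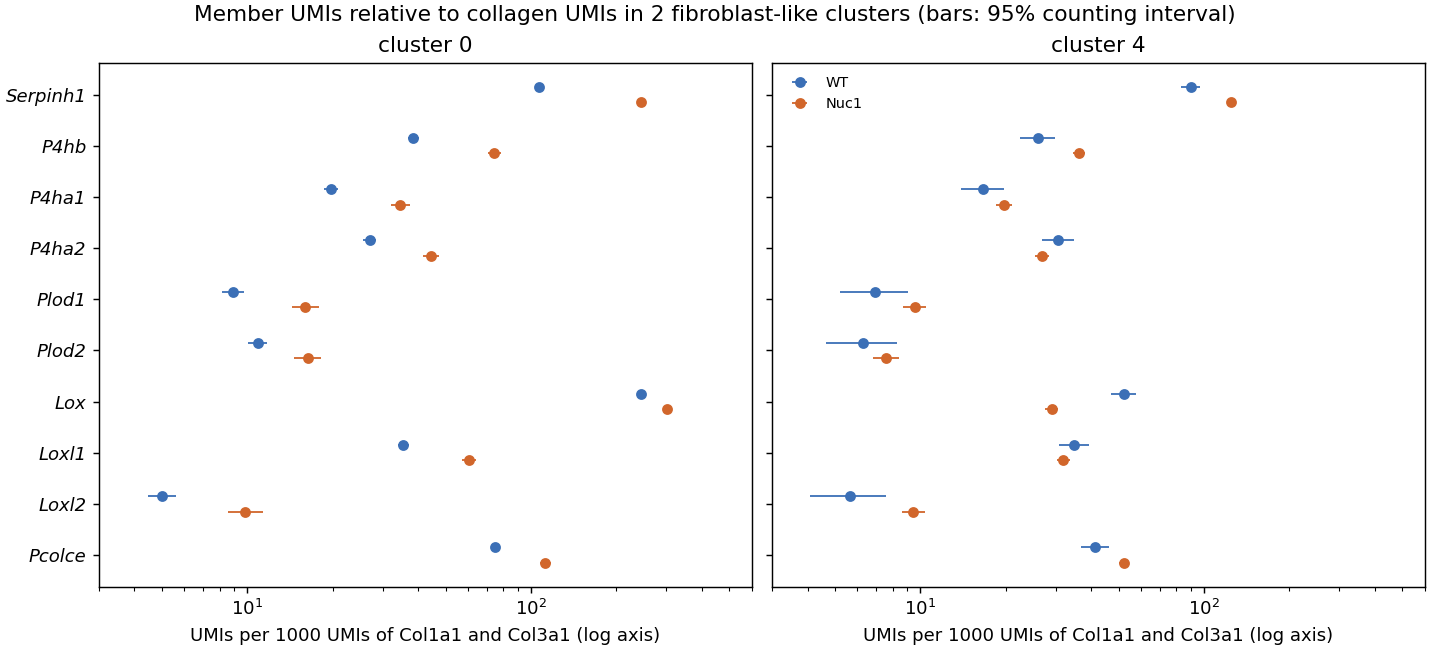
UMIs of each gene per 1000 UMIs of Col1a1 and Col3a1 (log axis) in clusters 0 and 4, for WT (blue) and Nuc1 (orange), with 95% counting intervals. Orange lies right of blue in cluster 0, and in cluster 4 it lies left for Lox, P4ha2 and Loxl1. The collagen divisor was lower in Nuc1 in both clusters.

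Cells rich in collagen were next compared with cells poor in it. Fibroblast-like cells of each library were ranked by their summed Col1a1 and Col3a1 level and cut into 3 equal parts. From the lowest to the highest part Serpinh1 was 1.29 times as high in WT (1.25 to 1.33) and 1.2 times in Nuc1 (1.15 to 1.24), P4hb 1.39 and 1.24 times, Loxl1 1.36 and 1.36 times and Pcolce 1.32 and 1.37 times. P4ha1 (1.23 and 1.30) and Plod1 (1.29 and 1.33) were in the same range. Plod2 was at 1.21 in WT and 1.09 (0.95 to 1.24) in Nuc1, the latter not beyond counting error. P4ha2 was at 0.96 in WT and 1.34 in Nuc1. Loxl2 alone reached 1.5-fold in both libraries, at 1.99 (1.74 to 2.27) and 1.61 (1.40 to 1.85), as 1.97% of 7831 genes did, and none of the 10 was 1.5-fold lower in both (1.06%). Ranked within each cluster, a way added after the data were seen, it was 1.66 in WT and 1.12 (0.98 to 1.27) in Nuc1, so that none of the 10 passed in both (0.356% of genes were higher and 0.483% lower).

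Lox was the exception in collagen-rich cells. It was 0.94 times as high in the collagen-rich part as in the poor part in WT (0.92 to 0.96), at 1764 and 1876 CPM, and 0.46 times in Nuc1 (0.44 to 0.48), at 537 and 1175. Cells of cluster 4 were 6.6% of the rich part in WT and 70.6% in Nuc1. Within clusters the ratios were 1.04 (1.02 to 1.06) and 1.01 (0.97 to 1.04).

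**Figure D5:**
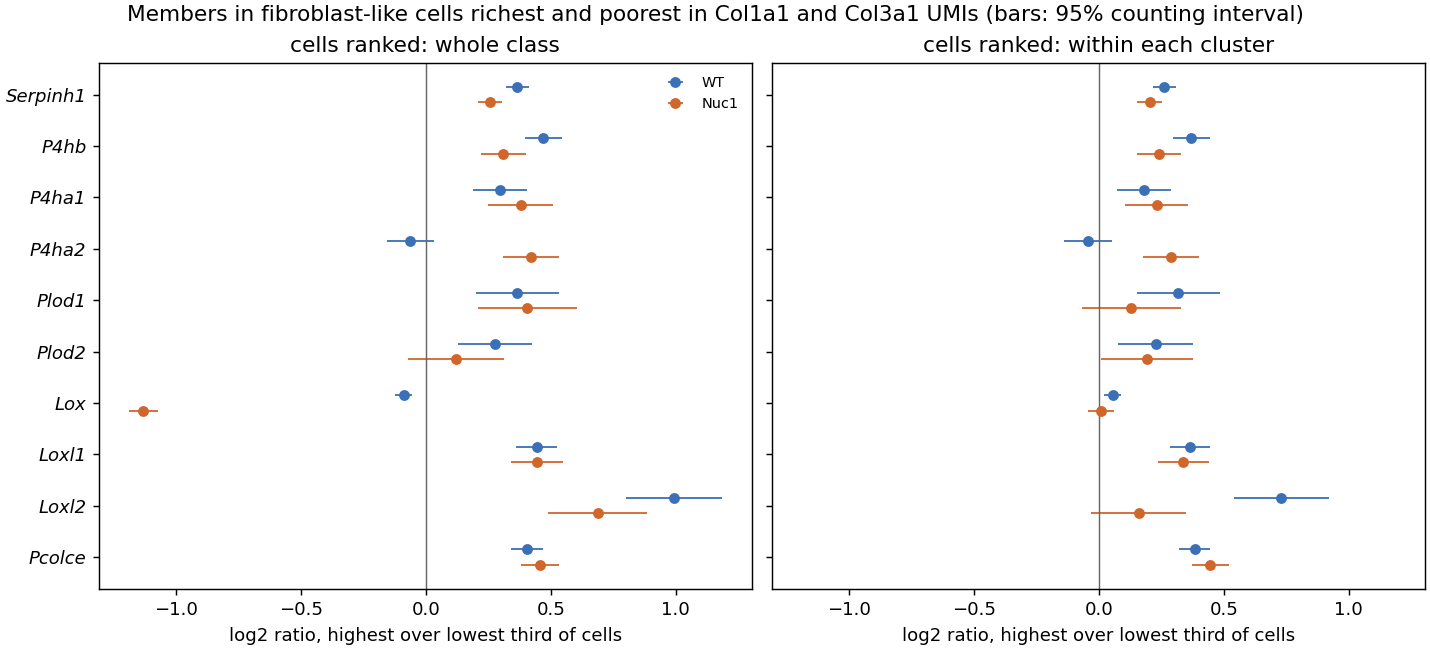
Log2 ratio of each gene between the fibroblast-like cells with most and with least Col1a1 and Col3a1 (the highest and lowest of 3 equal parts), ranked over the whole class (left) and within each cluster (right), for WT (blue) and Nuc1 (orange), with 95% counting intervals. The Nuc1 point of Lox stands apart on the left panel (0.46-fold) and at 0 on the right (1.01-fold).

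Other steps of collagen making were read from lists. Of the fibrillar collagen chains, 5 of 7 genes with enough UMIs were at least 1.5-fold lower in Nuc1 fibroblast-like cells (8.75% of all genes), with a median log2 ratio of −0.95. Col1a1 is 1 of the 5; Col11a1, a minor fibril chain, had 472 and 188 CPM (−1.33) and Col5a2 207 and 130 (−0.67). Of the prolyl 3-hydroxylases and further chaperones 3 of 10 were higher (9.59% of all genes) and none lower: P3h3 had 80.7 and 201 (1.32, from 1.24 to 1.40), Fkbp9, a proline isomerase, 115 and 182 (0.67), and P3h2 only 1.99 and 3.01. P3h1, which hydroxylates the collagen I chain, stood at 104 and 89.1. Among 5 enzymes of propeptide removal 1 was lower, Tll1 (5.96 and 2.56), while Bmp1, the main C-proteinase, had 26.0 and 23.3. Of 9 genes of export from the endoplasmic reticulum 1 was lower, Creb3l1, a transcription factor for collagen export, with 83.2 and 54.8. None of the 3 remaining modifying enzymes tested (Plod3, Colgalt1 and Loxl3) passed 1.5-fold.

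General folding and low oxygen genes were counted beside the same shares over all genes (8.75% lower, 9.59% higher). Of 15 general folding genes 2 were lower, Atf4 (300.4 and 153 CPM, −0.98) and Hyou1 (43.1 and 24.3, −0.83), and none was higher. Of 14 genes known to respond to low oxygen, the setting in which P4ha1, P4ha2 and Plod2 are also induced, Ddit4 was higher (14.9 and 33.7, 1.17) and Hk2 (55.4 and 19.8, −1.49) and Car9 (3.57 and 2.12, −0.75) were lower, with a median of −0.07. The median log2 ratio was 0.01 for the prolyl 3-hydroxylase list, −0.14 for propeptide removal, 0.04 for export and −0.03 for general folding, beside 0.03 for all genes.

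Finally, each gene was matched to the genes whose levels ran most like its own over the 15 combinations of cluster and library with at least 30 cells, as Pearson's r of log2 levels among 6394 genes. The points share libraries and cells of like kinds, so r is a description. Serpinh1 ran most like Sparc (0.97), an extracellular collagen-binding protein, Pcolce like Crtapl1 (0.99), Loxl1 like Marveld1 (0.99), and P4ha2 like Tfpi (0.98), an inhibitor of coagulation. P4ha1 ran like Pdia6 (0.96) and Calr (0.96), both folding factors of the endoplasmic reticulum, and Plod2 like Lman1 (0.94), a cargo receptor for export. For Lox the likest were Slit2 and Pdlim5 (0.97 each), for Loxl2 Chek1 (0.98), a checkpoint kinase, and Pdlim7 (0.97), for Plod1 Col6a2 (0.96), and for P4hb Pqlc3 and Abi3bp (0.97 each).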

How the data were processed

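The authors deposited, for each library, a matrix of UMI counts per gene and cell barcode, not normalized. The submitters' processing notes name Cell Ranger 3.1.0, STAR 2.7 and Seurat 3.1.0 and 3.1.1; the genome build is not given in the sources used here. The members, marker lists and gene lists were chosen with earlier results of these data known. Cells with 500 or more genes and no more than 20% mitochondrial UMIs (13 genes) were kept (1968 WT and 1793 Nuc1 barcodes), and doublets called by Scrublet (scanpy 1.11.5, expected rate 2%) were removed: 7 WT and 13 Nuc1, under the share at which such a caller can be taken to have worked, so doublets may remain. Libraries were integrated and clustered in Seurat 5.3.0 (R 4.3.3) on 1997 of 2000 variable genes, leaving out the 10 genes, Col1a1 and Col3a1, with 30 components and resolution 0.5. A cluster was named from another marker list when at least 3 of its markers were among the 10 leading genes. Otherwise it was fibroblast-like when at least 5 of 9 fibroblast markers reached 50 CPM. Those with at least 3 division markers among the leading genes were kept apart as dividing. UMIs were summed per library and cluster; intervals are exact (Poisson for levels, conditional binomial for ratios, Clopper-Pearson for shares; scipy 1.17.1, numpy 2.4.6, Python 3.11.15). Background shares use genes with at least 100 UMIs in the cells compared. Depth was 34517542 WT and 35794685 Nuc1 UMIs, and a count of 0 allows up to 3 UMIs. Genes named are the 10, Col1a1 and Col3a1, up to 4 leading genes of a cluster, up to 3 with the highest and lowest ratios in each list, and the closest matches by log2 level with 10 CPM added. Intervals and ratios were tested on simulated data with counting error only. That test cannot show how they hold up against spread between cells, animals or libraries. Alternatives changed the cell filters, doublets, clustering, scaling (edgeR 4.0.16 TMM), depth and the clusters in the class. Gene symbols listed more than once (99) were left out of the lists.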

Additional observations from a re-analysis of the deposited data

Results flagged for a closer look

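Some Nuc1 over WT log2 ratios differed between clusters with intervals clear of each other or opposite in direction; with 1 library per genotype these differences were not tested. For P4ha2 the ratio was 1.18 in cluster 8 and −0.59 in cluster 4. For Col1a1 it was 1.67 in cluster 6 and 0.84 in cluster 8, against −1.37 in cluster 0, −1.01 in cluster 1, −0.92 in cluster 2, −0.67 in cluster 3, −0.69 in cluster 4, −0.83 in cluster 5 and −1.27 in cluster 9. For Col3a1 it was 2.27 in cluster 6, against −0.65 in cluster 2 and −0.95 in cluster 8. Cluster 6 held 15 WT cells and its Col1a1 levels were 28.6 and 90.8 CPM. In cluster 8 the libraries differed in choroid plexus markers (12.4 CPM in WT and 57759 in Nuc1), whose part in these ratios was not tested.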

How the results depend on the processing

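No paired analysis was possible because only a single library was made from each genotype. Limiting cells to 10% mitochondrial UMIs brought the number of genes at least 2-fold higher in fibroblast-like than in astrocyte-like cells from 7 to 4 and their median log2 ratio from 2.15 to 1.24, and turned the WT ratio of Plod2 from 1.38 to −0.51; the astrocyte-like cluster then held 28 WT cells, 12 of them from cluster 8. Without fibroblast-rich astrocyte-like cells that median was 2.51. The median Nuc1 over WT log2 ratio of −0.15 became −0.22 without cluster 4. Lox was the 1 gene past 1.5-fold between libraries in all 19 alternatives counted, with log2 ratios from −1.22 without cluster 1 to −0.70 without cluster 4, and Pcolce, at −0.14, was at 0.0041 without cluster 0. TMM scaling moved the Nuc1 ratio of Serpinh1 between fibroblast-like and astrocyte-like cells from 1.06 to 0.86. UMIs of the 10 genes per 1000 collagen UMIs in WT (531) were 521 with the 10% limit, 470 with clusters weighted equally, and 516, 517, 553 and 540 without cluster 0, 1, 2 and 4. In Nuc1 (612) they were 593 with the 10% limit, 627 at resolution 0.2, 622 without clustering, 602 after thinning, 624 with equal weights, 627 with the dividing cluster added, and 547, 565, 587 and 800.4 without cluster 0, 1, 2 and 4. Except where the set of cells itself changed, the cause of these shifts was not tested. One library per genotype leaves animal, culture, dissociation and genotype impossible to tell apart, and low levels in clusters 6, 7 and 9 rest on few cells.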
